A study of Caenorhabditis elegans with 18 samples.

Results

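Caenorhabditis elegans has no gene for a canonical Hedgehog ligand and no clear homologue of Smoothened, the membrane protein that relays the Hedgehog signal in flies and vertebrates. It has instead a large set of Hedgehog-related secreted proteins, named warthog (wrt), groundhog (grd) and ground-like (grl), and an equally expanded set of membrane proteins with a sterol-sensing domain, the patched homologues ptc-1 and ptc-3 and the patched-related ptr genes. Most are expressed in the epidermis, glia and other cells that line the body surface, many are needed to shed and rebuild the cuticle, and in larvae many of their transcripts rise and fall with each molt. The genes described here are all those whose WormBase symbol is grd, grl, wrt, ptr or ptc followed by a number, 83 of the 20395 genes in the count table. They comprise 16 grd, 31 grl and 10 wrt genes, 57 ligand-like genes in all, and 24 ptr and 2 ptc genes, 26 patched-like genes in all.

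All animals, the controls included, were CB3474 worms with the mutation ben-1(e1880). The gene ben-1 encodes a beta-tubulin, and in the wild type benzimidazoles act on worms through it. Cultures at 20 °C received 1 of 5 benzimidazoles at 1.13 mM, or the solvent DMSO alone, for 4 h. The drugs were thiabendazole (TBZ), albendazole (ABZ), mebendazole (MBZ), fenbendazole (FBZ) and oxfendazole (OxBZ), and each of the 6 groups had 3 RNA sequencing libraries of whole worms, 18 in all. The labels do not say whether each library came from a culture of its own, so p-values measure the spread between these libraries only. The source label names mixed larval stages, whereas the growth protocol has first-stage larvae cultured for some 70 h until they were adult. The age of the animals is therefore uncertain. In whole worms a lower proportion of a cell type cannot be told apart from less RNA per cell.

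Levels are CPM, read counts relative to the scaled library total, given as mean ± SD (n = 3 libraries). Changes are edgeR log2 fold changes ± an approximate standard error (SE). A gene is said to rise or fall where the adjusted p of edgeR's quasi-likelihood test, by Benjamini-Hochberg over all 17484 genes tested, was below 0.05. Library totals ran from 57010263 to 67277284 counts. Of the 83 genes, 73 had enough reads to be tested, namely 14 grd, 24 grl, 9 wrt, 24 ptr and 2 ptc genes. The other 10 were grd-8, grd-9, grl-3, grl-19, grl-24, grl-28, grl-29, grl-30, grl-31 and wrt-7, with 1 to 91 counts each over the 18 libraries and never more than 0.249 CPM in a library.

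Libraries within a group were not alike. On the first principal component of all genes, with 46.1% of the variance, DMSO replicate 2 lay at -140.0 and ABZ replicate 2 at -125.8, while the other libraries of both groups lay between -48.5 and 4.9. Of the 73 tested members, 22 were at their lowest and 17 at their highest, within both groups, in these libraries numbered 2. The summed level of 21 sperm genes was 2320 CPM in DMSO replicate 2, against 319 and 567 CPM in the other DMSO libraries. Among the OxBZ libraries, 26 of the 73 members were more than 2-fold higher in replicate 3 than in both others. That library also stood apart over all genes, at 41.9 on the first component against -21.9 and -16.8. The matching shares over all genes were not counted, so whether these counts are particular to the members was not tested. Counts of changed genes are therefore also given without the libraries that stood apart, where the counts moved.

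Without drug, the level of the members spanned a wide range. Divided by exon length, ptc-1, which is needed for cell division in the germline, stood first at 148 CPM per kb. It was followed by ptr-2 at 74.4, grd-5 at 73.7 and grd-3 at 57.7 CPM per kb. The other patched homologue, ptc-3, stood at 12.2 CPM per kb. Between grd-3 and ptc-3 came, among others, wrt-10 and ptr-24, both at 19.6, grl-4 at 18.8, ptr-21 at 16.4 and ptr-14 at 15.5 CPM per kb. The level of ptc-1 was steady in DMSO, at 724, 764 and 764 CPM, as was that of ptr-2, at 220, 212 and 217 CPM. The leading ligand-like genes were not steady, since grd-3 measured 23.7, 64.4 and 31.6 CPM and grd-5 27.1, 57.3 and 31.5 CPM in DMSO replicates 1, 2 and 3. Neither the order of ptr-2, grd-5 and grd-3 nor that of the genes between 15.5 and 19.6 CPM per kb exceeded this spread. In both grd genes the library numbered 2 was the high one.

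The drugs differed widely in how many of these genes they moved. FBZ raised 37 of the 73 tested members and lowered 5, where 24.3% of all genes tested rose and 27.4% fell. OxBZ raised 4 and lowered 12, against 21.2% and 21.5% of all genes. ABZ raised 3 and lowered 0 (all genes 1.60% and 0.606%), MBZ raised 3 and lowered 0 (1.25% and 0.235%), and TBZ raised 3 and lowered 4 (3.06% and 3.17%). As shares of the 73 members, the FBZ counts were 50.7% higher and 6.85% lower. The OxBZ counts were 5.48% and 16.4%, so that under this drug the shares of members that rose and that fell both stood below those of all genes. The median log2 fold change of the members was 1.33 under FBZ, -0.38 under OxBZ, 0.23 under ABZ, 0.67 under MBZ and 0.44 under TBZ, while that of all genes tested lay between -0.01 and 0.01. A test of any difference among the 6 groups called 48 of the 73 members, against 69.5% of all genes tested. At an unadjusted p below 0.05 the counts of members were 8 for ABZ, 52 for FBZ, 20 for OxBZ, 12 for MBZ and 17 for TBZ, and those of all 17484 genes tested were 2080, 10170, 9043, 2963 and 3711.

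**Figure D1:**
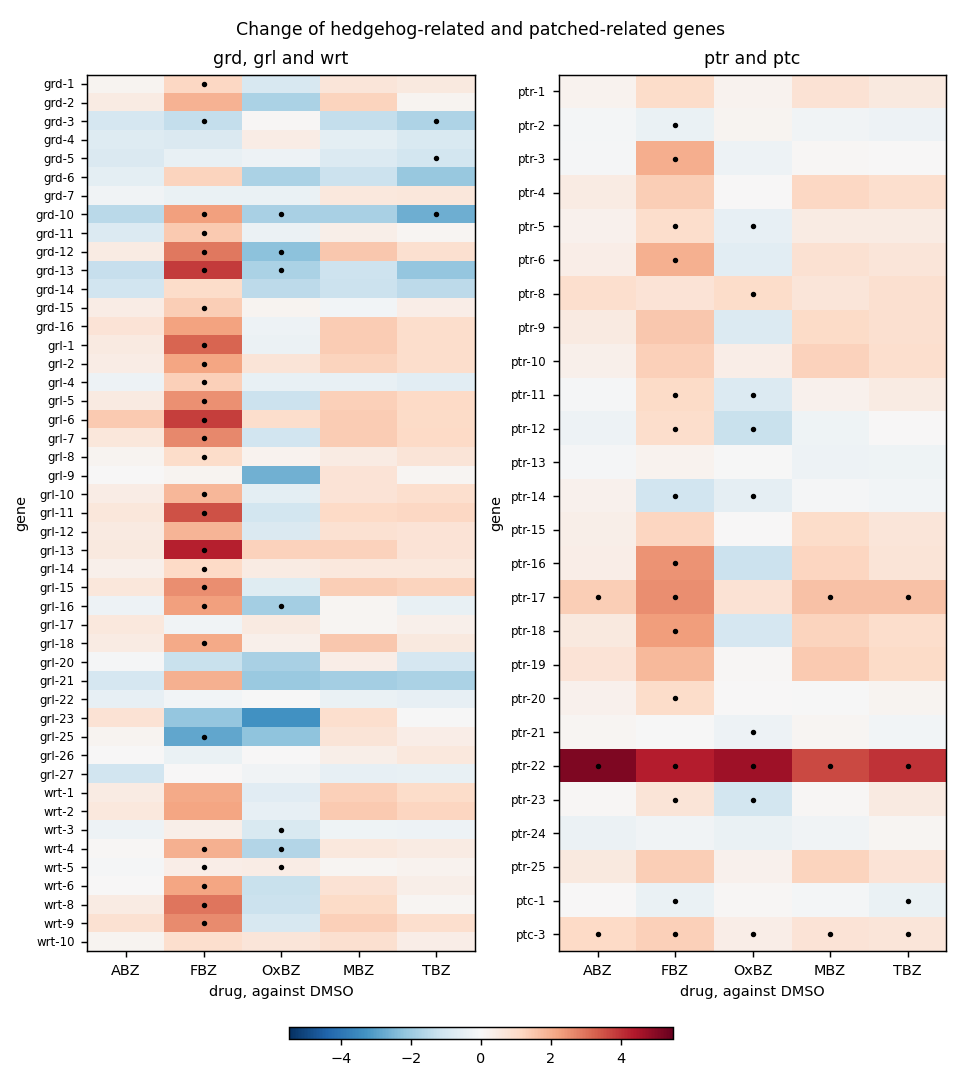
Log2 fold change against DMSO of the 73 tested genes (rows, grouped by family) under the 5 drugs (columns), from edgeR; colour gives the change and a dot marks an adjusted p below 0.05. The FBZ column is mostly above 0 with 37 genes raised, the OxBZ column is mixed with 12 lowered, and the ptr-22 and ptc-3 rows carry a dot under every drug.

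A single member, the patched-related gene ptr-22, gave the largest change in each of the 5 comparisons with DMSO among members of at least 1 CPM. It measured 3.15, 1.11 and 2.92 CPM in DMSO, a mean of 2.39 ± 1.12. It measured 74.8, 86.6 and 89.5 CPM under ABZ, 52.8, 51 and 39.0 CPM under FBZ, and 70.3, 57.3 and 57.8 CPM under OxBZ. Under MBZ it stood at 27.5, 24.4 and 37.9 CPM, and under TBZ at 23.7, 45.7 and 42.8 CPM. Every drug library was above every DMSO library, and the lowest of the 15 drug libraries was TBZ replicate 2. The log2 fold changes were 5.12 ± 0.36 for ABZ, 4.31 ± 0.35 for FBZ, 4.68 ± 0.36 for OxBZ, 3.64 ± 0.34 for MBZ and 3.96 ± 0.35 for TBZ. The adjusted p by edgeR and Benjamini-Hochberg ran from 4.6e-07 under OxBZ to 2.63e-05 under MBZ. In fits of only 1 drug with DMSO, the change stayed above the threshold for ABZ, FBZ and OxBZ. The adjusted edgeR p was then 0.0588 for MBZ, with a log2 fold change of 3.64, and 0.104 for TBZ, with 3.96.

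The second gene that rose under all 5 drugs was ptc-3, an essential patched homologue linked to sterol and water balance. It measured 67.6, 50.9 and 44.2 CPM in DMSO. Under ABZ it stood at 117, 111 and 120 CPM and under FBZ at 139, 127 and 131 CPM. Under MBZ the libraries gave 96.2, 87.3 and 94.8 CPM and under TBZ 98.9, 76.6 and 83.8 CPM, so in these 4 groups all libraries were above all DMSO libraries. The OxBZ libraries, at 67.7, 61.4 and 80.0 CPM, overlapped with DMSO replicate 1. The log2 fold changes were 1.09 ± 0.14 for ABZ, 1.29 ± 0.14 for FBZ, 0.77 ± 0.14 for MBZ and 0.67 ± 0.14 for TBZ. For OxBZ it was 0.36 ± 0.14, with an adjusted edgeR p of 0.0447. That call did not hold without DMSO replicate 2 (0.26) or DMSO replicate 3 (0.23), and the MBZ call did not hold without DMSO replicate 2 (0.69).

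Another patched-related gene, ptr-17, rose under 4 drugs from a low level. It measured 0.648, 0.341 and 0.357 CPM in DMSO. The ABZ libraries held 0.851, 1.02 and 1.59 CPM, the FBZ libraries 2.85, 2.18 and 2.96 CPM, the MBZ libraries 1.12, 1.21 and 1.79 CPM, and the TBZ libraries 1.14, 1.64 and 1.30 CPM. All of these lay above all DMSO libraries, whereas the OxBZ libraries, at 0.905, 0.627 and 0.779 CPM, overlapped with DMSO. The log2 fold changes were 2.56 ± 0.33 for FBZ, 1.61 ± 0.32 for MBZ, 1.60 ± 0.32 for TBZ and 1.36 ± 0.32 for ABZ. For OxBZ it was 0.78 ± 0.32, with an adjusted edgeR p of 0.0651. The ABZ call did not hold without DMSO replicate 2 (1.20) or 3 (1.22) or ABZ replicate 2 (1.44) or 3 (1.06). The MBZ call did not hold without DMSO replicate 2 (1.41) or 3 (1.47) or MBZ replicate 3 (1.37), nor the TBZ call without TBZ replicate 3 (1.44).

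These 3 genes were the only members that rose under ABZ, MBZ or TBZ by the edgeR fit of all libraries. The libraries of ABZ and DMSO with the same number deviated together, so ABZ was also fitted with the replicate number as a block, on its own and the DMSO libraries. With this block 70 members were tested, 3 rose and 1 fell, where 1.91% of all genes rose and 1.44% fell. The rises were ptr-22 with a log2 fold change of 5.17, ptc-3 with 1.11 and ptr-8 with 0.93, the last with an adjusted edgeR p of 0.00305. The gene that fell was grd-10, by 1.35 on the log2 scale with an adjusted edgeR p of 0.0168, whereas ptr-17 was no longer called (adjusted p = 0.145). The gene grd-10 was lower in ABZ than in the DMSO library of the same number in every pair, at 1.05 against 2.33, 3.50 against 11.2 and 1.05 against 2.33 CPM. Without the libraries numbered 2 of both groups, ptr-22 and ptc-3 were the members that rose under ABZ. Exons of ptr-8 overlap with those of sra-10 on the other strand, and whether the counting used strand is not given in the sources used here.

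**Figure D2:**
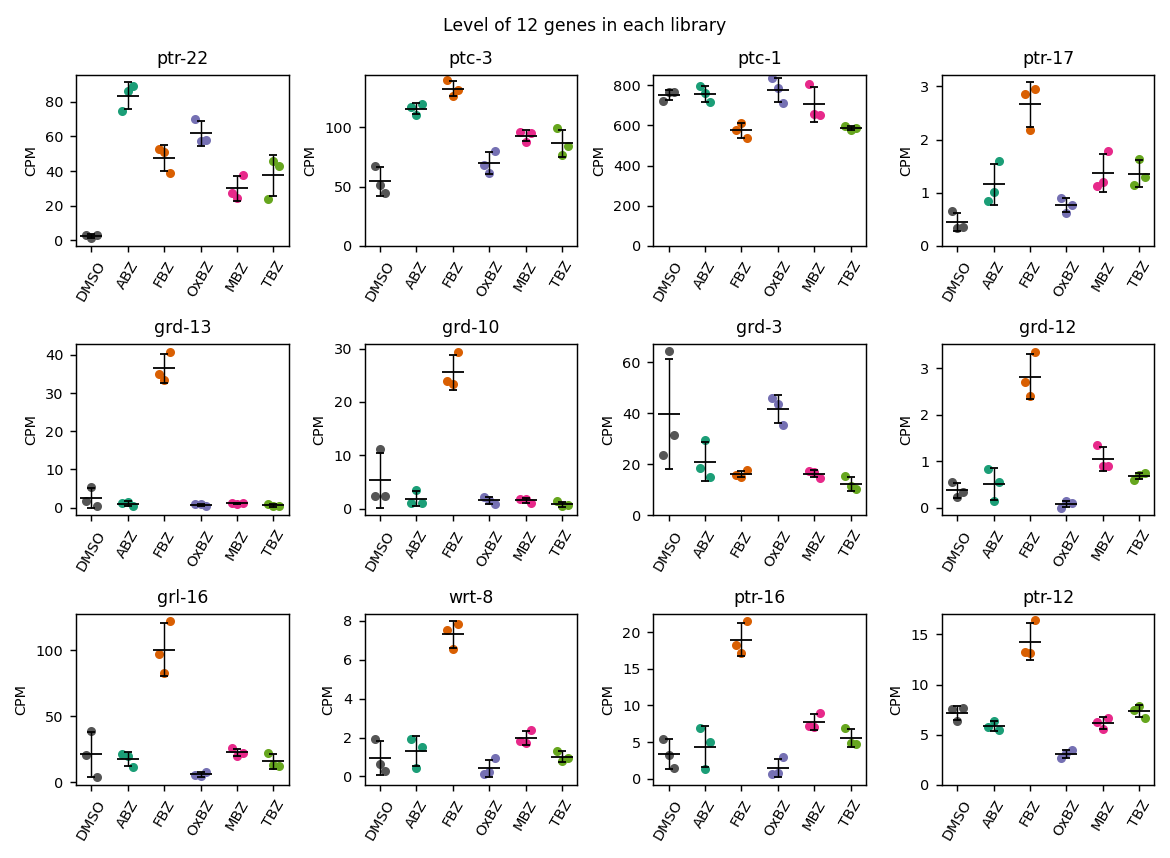
CPM of 12 genes in each library (points) by group, with the mean and SD over 3 libraries (line and bars). The 15 drug libraries of ptr-22 lie between 23.7 and 89.5 CPM above a DMSO maximum of 3.15 CPM, and grd-13 is at 33.5 to 40.8 CPM under FBZ only.

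Under FBZ most ligand-like genes that changed were higher. Of 14 tested grd genes 6 rose and 1 fell, with a median log2 fold change of 1.30. Of 24 grl genes 14 rose and 1 fell, with a median of 1.86, and of 9 wrt genes 5 rose and 0 fell, with a median of 2.10. All libraries of FBZ were above all of DMSO in 52 of the 73 members and below them in 6, against 33.1% and 32.6% of all genes tested.

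The largest rise among grd genes was that of grd-13. It measured 1.66, 5.34 and 0.519 CPM in DMSO and 35.0, 33.5 and 40.8 CPM under FBZ, a log2 fold change of 3.86 ± 0.69 with an adjusted edgeR p of 0.000648. No library of another drug exceeded 1.56 CPM. The gene grd-10 measured 2.33, 11.2 and 2.33 CPM in DMSO and 23.9, 23.4 and 29.4 CPM under FBZ, a log2 fold change of 2.27 ± 0.66 (edgeR adjusted p = 0.0105). The gene grd-12 measured 0.548, 0.233 and 0.341 CPM in DMSO and 2.71, 2.41 and 3.35 CPM under FBZ, a log2 fold change of 2.91 ± 0.64 (edgeR adjusted p = 0.00217). In all 3 genes the FBZ libraries stood apart from every DMSO library. Exons of grd-12 overlap with xbx-1 on the same strand and with F02D8.1 on the other, so its reads may be shared. The remaining grd genes that rose were grd-11, grd-15 and grd-1, with log2 fold changes of 1.42, 1.37 and 1.16. Exons of grd-11 overlap with K02E2.8, and those of grd-15 with cyn-15, on the other strand.

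The gene that fell, grd-3, is the neighbour of both grd-10 and grd-13 on the chromosome, with no other annotated protein-coding gene between them. It measured 16, 15.2 and 17.6 CPM under FBZ, below all DMSO libraries (23.7, 64.4 and 31.6 CPM), a log2 fold change of -1.30 ± 0.32 with an adjusted edgeR p of 0.00402. Under OxBZ it measured 46.0, 43.8 and 35.5 CPM, within the DMSO range (log2 fold change 0.07, 95% interval -0.60 to 0.73). These 3 adjacent grd genes thus held values of opposite sign under FBZ, the outer members up and grd-3 down. Along with grd-5, grd-3 was the most abundant of its family in DMSO. The level of grd-5 under FBZ, at 27, 26.8 and 34.5 CPM, overlapped with DMSO (log2 fold change -0.39 ± 0.26).

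Among grl genes of at least 1 CPM the largest rises under FBZ were those of grl-6, grl-11 and grl-1. The gene grl-6 measured 0.166, 0.0359 and 0.0973 CPM in DMSO and 1.34, 0.988 and 1.96 CPM under FBZ, a log2 fold change of 3.80 ± 0.66. The gene grl-11 had 0 reads in DMSO replicate 2, 0.299 and 0.0324 CPM in the others and 1.09, 1.38 and 1.39 CPM under FBZ, a log2 fold change of 3.50 ± 1.02. The gene grl-1 measured 1.98, 0.484 and 0.243 CPM in DMSO and 7.24, 7.34 and 10.3 CPM under FBZ, a log2 fold change of 3.20 ± 0.74. In each of them the FBZ libraries were above every DMSO library, and the adjusted edgeR p ran from 0.000553 for grl-6 to 0.0109 for grl-11. Exons of grl-1 overlap with hir-1 on the other strand. Below 1 CPM, grl-13 rose by a log2 fold change of 4.26 ± 0.79 to 0.465 ± 0.0438 CPM. The most abundant grl gene, grl-16, went from 20.6, 38.4 and 3.86 CPM in DMSO to 96.7, 82.5 and 122 CPM under FBZ (log2 fold change 2.26 ± 0.56), and the next, grl-4, from 13.7, 19.4 and 13.4 to 35.8, 32.5 and 48.1 CPM (1.33 ± 0.34).

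Several grl genes with a known site or role were among those that rose under FBZ. The genes grl-5 and grl-7 rose by log2 fold changes of 2.53 and 2.65, and the patched-related ptr-18 by 2.28. These genes have been linked to the control of progenitor cell quiescence in starved first-stage larvae, not necessarily in the same direction. In DMSO grl-7 measured 17.2, 4.99 and 4.05 CPM, and under FBZ 55.9, 49.3 and 59.6 CPM. The gene ptr-18 measured 17, 6.11 and 5.97 CPM in DMSO and 46.4, 43.7 and 51.6 CPM under FBZ. For both, replicate 1 was the highest DMSO library and still lay below every FBZ library. The genes grl-2, used as a marker of the excretory duct and pore, and grl-18, used as a marker of glia, rose by 2.17 and 2.09 from levels below 1 CPM. Further rises were those of grl-15 (2.56), grl-10 (1.84), grl-14 (1.11) and grl-8 (1.00), and grl-25 was the grl gene that fell, by 2.87 on the log2 scale from 0.887 ± 0.257 to 0.121 ± 0.0773 CPM. The exons of grl-2, grl-10, grl-14 and grl-15 each overlap with another counted gene on the other strand.

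The wrt genes, expressed mainly in the epidermis, had the highest family median under FBZ in the fit of all libraries. When any 1 library was left out it ran from 1.69 to 2.56, which overlapped with the 1.54 to 1.92 of the grl genes. The gene wrt-8 measured 1.93, 0.646 and 0.276 CPM in DMSO and 7.51, 6.55 and 7.85 CPM under FBZ, a log2 fold change of 2.94 ± 0.76. The gene wrt-9 went from 3.49, 0.950 and 0.713 CPM to 10.7, 9.26 and 11 CPM, a log2 fold change of 2.58 ± 0.74. The gene wrt-6 went from 5.45, 4.05 and 1.59 CPM to 17.4, 15.7 and 17.7 CPM, a log2 fold change of 2.19 ± 0.56. These FBZ libraries were again all above those of DMSO, with adjusted edgeR p of 0.00561, 0.0100 and 0.00545. The gene wrt-4 rose by 1.94 ± 0.58. The gene wrt-5, which is needed for embryonic development, rose by 0.38 ± 0.11, from 7.11, 6.40 and 7.22 CPM to 9.03, 8.86 and 9.04 CPM.

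The most abundant wrt genes did not pass the test under FBZ, although their FBZ libraries lay above those of DMSO. The gene wrt-1 measured 39.0, 3.60 and 13.6 CPM in DMSO and 79.8, 70.5 and 90.4 CPM under FBZ, a log2 fold change of 2.10 with a 95% interval of 0.16 to 4.03 and an adjusted edgeR p of 0.0651. Its neighbour wrt-10 measured 33.5, 6.22 and 26.5 CPM in DMSO and 42.8, 40.7 and 41.5 CPM under FBZ, with a 95% interval of -0.29 to 2.12. The gene wrt-2, known for its expression in seam cells, measured 25.7, 2.30 and 9.63 CPM in DMSO and 55.8, 51.8 and 60.1 CPM under FBZ (edgeR adjusted p = 0.0634). Its exons overlap with pccb-1 on the other strand. In all 3 genes DMSO replicate 2 was the lowest library, as ABZ replicate 2 was within ABZ.

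Of the 24 patched-related genes 11 rose and 2 fell under FBZ, with a median log2 fold change of 1.13. Beside ptr-22, ptr-17 and ptr-18 they were ptr-16, ptr-3, ptr-6, ptr-11, ptr-20, ptr-12, ptr-5 and ptr-23. The gene ptr-16 measured 5.46, 3.21 and 1.46 CPM in DMSO and 18.3, 17.2 and 21.5 CPM under FBZ, a log2 fold change of 2.49 ± 0.62 (edgeR adjusted p = 0.00439). The gene ptr-3 measured 2.67, 3.23 and 1.83 CPM in DMSO and 10.4, 9.65 and 10.3 CPM under FBZ, a log2 fold change of 1.98. Both had all FBZ libraries above all DMSO libraries, and in no other drug group did a ptr-3 library exceed 2.91 CPM. The gene ptr-4, whose product helps to assemble the apical extracellular matrix of the epidermis, measured 42.5, 6.46 and 23.6 CPM in DMSO and 61.6, 59.3 and 63.7 CPM under FBZ, and did not pass the test (log2 fold change 1.35, edgeR adjusted p = 0.124).

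The patched-like genes that fell under FBZ were ptc-1, ptr-2 and ptr-14, while ptc-3 and ptr-23, of comparable level to ptr-14, rose. The gene ptc-1 fell by 0.38 ± 0.08 on the log2 scale, from 724, 764 and 764 CPM to 580, 610 and 538 CPM, with an adjusted edgeR p of 0.00183. The gene ptr-2 fell by 0.38 ± 0.10, from 220, 212 and 217 CPM to 169, 168 and 161 CPM. The gene ptr-14 fell by 1.05 ± 0.16, from 38.4, 48.6 and 50.6 CPM to 21.3, 20.9 and 24.2 CPM. In the genes that fell no FBZ library reached the lowest DMSO library. The levels of ptr-24 and ptr-21 did not pass the test, with 95% intervals of the log2 fold change of -0.61 to 0.19 for ptr-24 and an adjusted edgeR p of 0.737 for ptr-21.

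Other genes of the FBZ libraries moved as well, and their part in these changes was not tested. Among all genes tested 24.3% rose and 27.4% fell under FBZ. All 21 tested genes of a sperm list fell under FBZ, with a summed level of 26.1 to 41.8 CPM against 319 to 2320 CPM in DMSO. Of 15 tested neuron genes 13 rose, and their summed level was 829 to 866 CPM against 519 to 634 CPM. Of 11 tested glia genes, a list that includes ptr-10, 7 rose and 1 fell, at 254 to 266 CPM summed against 135 to 201 CPM. Of 12 tested oocyte and germline genes 9 fell, at 5910 to 6150 CPM against 7090 to 8070 CPM. Of 10 intestine genes 1 rose and 4 fell, at 3910 to 4000 CPM against 6310 to 7160 CPM, while of 10 muscle genes 3 rose and 0 fell, and of 9 epidermis genes 3 rose and 0 fell. Of 36 tested genes of cuticle formation and molting 11 rose and 6 fell, or 30.6% and 16.7%, with a median log2 fold change of 0.95. The shares that rose among muscle (30.0%), epidermis (33.3%) and molting genes were near the 24.3% of all genes. The rises included mlt-10 (2.27) and mlt-9 (2.41), which are needed for molting, and the cuticle collagen sqt-3 (2.05). The falls were those of the cuticle collagens bli-1 (-4.51), bli-2 (-5.35), rol-6 (-4.05), sqt-1 (-5.01) and dpy-8 (-3.28) and of the molting regulator nhr-23 (-0.40). The collagens dpy-2 (1.27), dpy-3 (1.44), dpy-7 (1.32), dpy-10 (1.09) and dpy-9 (-0.82) did not pass the test, so collagens did not move in 1 direction. The median level of this list was 1.11 to 1.16 in the FBZ libraries on the log2 scale relative to DMSO, -0.68 in DMSO replicate 2 and 0.11 and 0.70 in the other DMSO libraries.

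**Figure D3:**
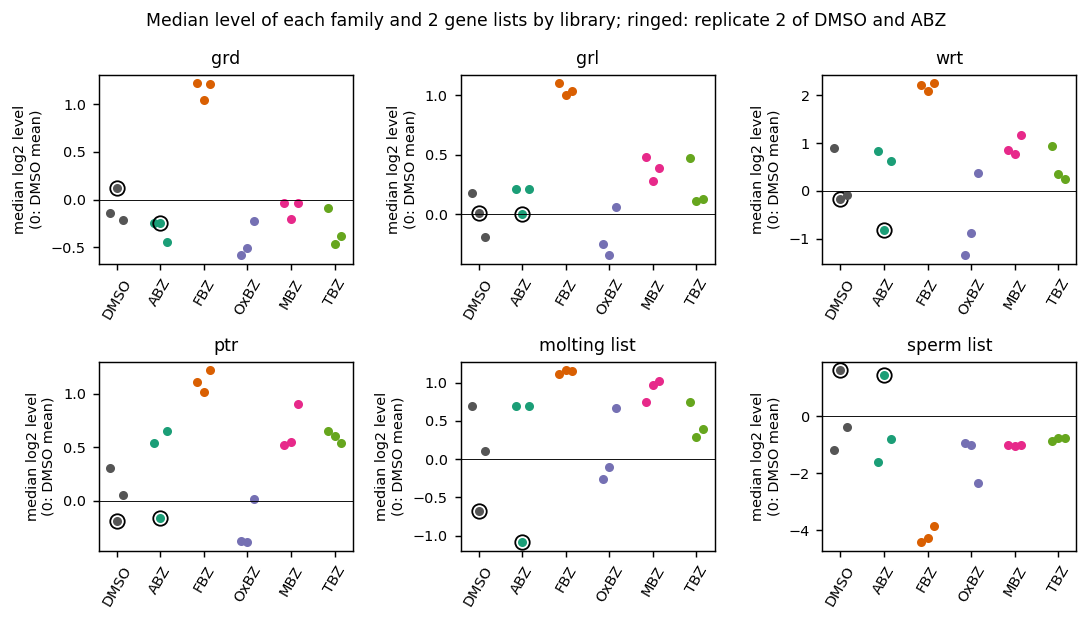
Median log2 level, relative to the DMSO mean, of each family and of the molting and sperm lists in each of the 18 libraries (points, by group); rings mark replicate 2 of DMSO and ABZ. The wrt medians are 2.08 to 2.25 in FBZ and -0.17 to 0.89 in DMSO, the molting list is at its lowest in both ringed libraries of their groups, and the sperm list is at -4.43 to -3.85 in FBZ.

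Without DMSO and ABZ replicates 2, FBZ raised 42 members and lowered 5. The count of rises lay between 32 and 47 when any 1 library was left out. In the other direction, the falls of ptc-1, ptr-2, ptr-14 and grd-3 were kept without the libraries numbered 2, and so was that of grl-25.

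Under OxBZ more members fell than rose, but the falls were no more frequent than among all genes tested, of which 21.5% fell and 21.2% rose. Of 14 grd genes 0 rose and 3 fell (median log2 fold change -0.62), of 24 grl genes 0 rose and 1 fell (-0.47), of 9 wrt genes 1 rose and 2 fell (-0.82), and of 24 ptr genes 2 rose and 6 fell (-0.16). The falls were 21.4% of the grd, 4.17% of the grl, 22.2% of the wrt and 25% of the ptr genes, near or below the share over all genes. All OxBZ libraries were below all DMSO libraries in 10 members and above them in 5, against 23.9% and 26.4% of all genes tested. The gene grd-12 had 0 reads, 0.139 and 0.0934 CPM under OxBZ against 0.233 to 0.548 CPM in DMSO, a log2 fold change of -2.24 ± 0.72 (edgeR adjusted p = 0.0235). That call did not hold without DMSO replicate 1 (-1.96). The gene grd-10 fell by 1.78 ± 0.66 on the log2 scale to 2.15, 1.64 and 0.810 CPM, and grd-13 by 1.72 ± 0.66 to 0.819, 0.958 and 0.498 CPM. Both falls rest on the high DMSO replicate 2, since without it the log2 fold changes were -0.68 and -0.58 and neither passed the test.

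The clearest falls under OxBZ were in patched-related genes. The gene ptr-12 measured 7.54, 6.40 and 7.67 CPM in DMSO and 2.65, 3.19 and 3.46 CPM under OxBZ, a log2 fold change of -1.22 ± 0.15 with an adjusted edgeR p of 2.7e-05. The gene ptr-23, which is needed for the osmotic resistance of osm-8 mutants, measured 39.6, 38.8 and 44.4 CPM in DMSO and 19.3, 21 and 21.2 CPM under OxBZ, a log2 fold change of -1.0 ± 0.17. Both groups of libraries were tight and did not overlap. Further falls were those of ptr-11 (-0.77), ptr-14 (-0.48), ptr-5 (-0.44) and ptr-21 (-0.30), of which ptr-5 overlapped with DMSO. Of the wrt genes wrt-3 fell by 0.82 ± 0.20, from 3.35, 3.51 and 3.13 CPM to 1.79, 1.85 and 2.01 CPM. The falls of wrt-4 (-1.59 ± 0.58) and grl-16 (-1.85 ± 0.56) passed the test although their libraries overlapped with DMSO, and neither held without DMSO replicate 2 (-1.39 and -1.11) or without OxBZ replicate 1 (-1.29 and -1.85).

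Besides ptr-22 and ptc-3, the rises under OxBZ were those of ptr-8 and wrt-5. The gene ptr-8 measured 27.1, 33.3 and 50 CPM in DMSO and 86.7, 74.8 and 64.7 CPM under OxBZ, a log2 fold change of 1.03 ± 0.34 (edgeR adjusted p = 0.0258). Its call did not hold without DMSO replicate 1 (0.75) or 2 (0.89) or OxBZ replicate 1 (0.85) or 2 (1.04). The gene wrt-5 measured 8.41, 8.64 and 10.2 CPM under OxBZ against 6.40 to 7.22 CPM in DMSO, a log2 fold change of 0.39 ± 0.11. That call did not hold without DMSO replicate 1 (0.32) or 2 (0.28) or OxBZ replicate 3 (0.30).

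OxBZ replicate 3 differed from the other OxBZ libraries in many members. The gene wrt-1 measured 3.79, 5.23 and 26.9 CPM in OxBZ replicates 1, 2 and 3, ptr-4 11, 13.7 and 49.1 CPM, and grl-7 1.28, 1.22 and 10 CPM. In each of these replicate 3 was several times higher than both others. The median level of the molting list, on the log2 scale relative to DMSO, was 0.67 in that library and -0.26 and -0.11 in the others, and the part of this in the members' values was not tested. Without OxBZ replicate 3 the drug lowered 20 members and raised 2. Without DMSO replicate 2 it lowered 7 and raised 1, without OxBZ replicate 1 it lowered 7 and raised 2, without OxBZ replicate 2 it lowered 5, and without the DMSO and ABZ libraries numbered 2 it lowered 7 and raised 2. Among other lists under OxBZ, where 21.2% of all genes rose and 21.5% fell, 9 of 15 tested neuron genes fell and 1 rose, 5 of 10 muscle genes fell and 0 rose, and 8 of 21 sperm genes fell and 0 rose. Of 10 intestine genes 6 fell and 2 rose, and their summed level was 2530 to 2810 CPM against 6310 to 7160 CPM in DMSO. Their part in the members' values was not tested.

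Under MBZ no member other than ptr-22, ptc-3 and ptr-17 passed the test. All MBZ libraries were above all DMSO libraries in 26 of the 73 members and below them in 4, against 13.7% and 7.93% of all genes tested. Among them grl-5 measured 8.43, 7.54 and 11.5 CPM against 6.11, 3.34 and 1.59 CPM in DMSO, a log2 fold change of 1.32 with a 95% interval of -0.08 to 2.71. Without DMSO replicate 1 MBZ raised 6 and lowered 2 members, and without DMSO replicate 2 it raised 1. With the DMSO and ABZ libraries numbered 2 left out, ptr-22 was the member that rose and grd-3 the one that fell.

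Under TBZ ptr-22, ptc-3 and ptr-17 rose and grd-10, grd-3, grd-5 and ptc-1 fell. The gene grd-3 measured 15.5, 11.6 and 10.2 CPM, a log2 fold change of -1.68 ± 0.32 with an adjusted edgeR p of 0.00657. The gene grd-10 measured 1.35, 0.50 and 0.583 CPM (-2.70 ± 0.68) and grd-5 25.5, 17.1 and 14.6 CPM (-1.02 ± 0.26). The gene ptc-1 measured 599, 579 and 586 CPM, a log2 fold change of -0.35 ± 0.08 with an adjusted edgeR p of 0.0203. In all 4 genes the TBZ libraries lay below all DMSO libraries. Without DMSO replicate 2, grd-3 was the 1 member still lowered, and the log2 fold changes of grd-10, grd-5 and ptc-1 were -1.52, -0.62 and -0.34. The same number fell without TBZ replicate 3 or 4, while without TBZ replicate 2 TBZ lowered 7 members and raised 5. Without DMSO replicate 1 it raised 5.

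The drugs were also compared with each other, in 10 pairs at the same dose and time, with p-values adjusted over all genes within a pair. Fenbendazole is a thioether and oxfendazole is its sulfoxide, and no pair differed in more members than these. FBZ was above OxBZ in 44 of the 73 members and below it in 5, against 29.5% and 30.5% of all genes tested, and the median difference of the members was 1.75 on the log2 scale. All FBZ libraries were above all OxBZ libraries in 53 members and below them in 7, against 38.8% of all genes each way. Adjusted over all 10 pairs and all genes together, the counts were 41 and 5.

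The largest differences between FBZ and OxBZ were in grd-13, at 36.5 ± 3.85 against 0.758 ± 0.236 CPM, and grd-12, at 2.82 ± 0.483 against 0.0776 ± 0.071 CPM. On the log2 scale they were 5.59 ± 0.75 and 5.15 ± 0.74, with adjusted edgeR p of 2.45e-05 and 4.31e-05. Then came grl-11 with 4.50, wrt-8 with 4.12 and grl-16 with 4.11, the last at 100 ± 19.9 against 5.82 ± 1.86 CPM. Patched-related genes with tight libraries differed as well, ptr-12 by 2.20 ± 0.15 and ptr-23 by 1.70 ± 0.17. In each of these genes no FBZ library overlapped with an OxBZ library. The genes lower under FBZ were grd-3 (-1.36 ± 0.32), its fellow ground gene grd-4 (-1.21), ptr-14 (-0.57), ptr-2 (-0.53 ± 0.10) and ptc-1 (-0.43 ± 0.08). The sulfoxide and the thioether did not differ detectably in ptr-22, with a difference of -0.38 and a 95% interval of -1.02 to 0.27, nor in wrt-5, with -0.02 and an interval of -0.26 to 0.23. For ptr-24 the difference was 0.17, with an interval of -0.24 to 0.57.

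**Figure D4:**
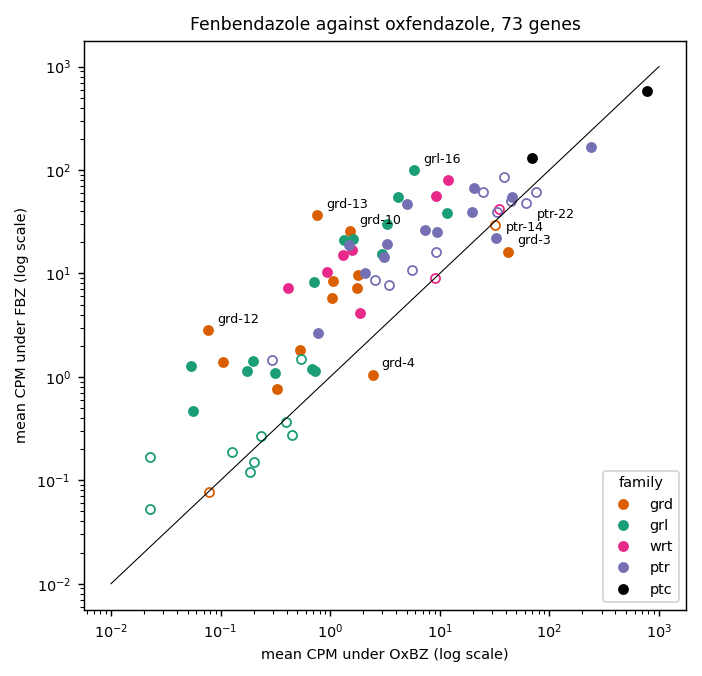
Mean CPM (n = 3) of the 73 tested genes under FBZ (vertical, log scale) against OxBZ (horizontal, log scale), coloured by family; filled points passed the test, open points did not, and the line marks equal levels. Most filled points lie above the line, grd-13 and grd-12 farthest from it, while ptr-22 lies close to the line.

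FBZ also stood above the other drugs. It was higher than ABZ in 32 members and lower in 5, against 18.7% and 24.0% of all genes tested. It was higher than MBZ in 19 and lower in 3 (all genes 12% and 15%), and higher than TBZ in 24 and lower in 2 (16.1% and 19.6%). In these 3 pairs grd-13 had the largest difference on the log2 scale, -5.13 as ABZ minus FBZ, 5.0 as FBZ minus MBZ and 6.0 as FBZ minus TBZ. The next largest was that of grd-10, at -3.78, 4.06 and 4.97. Without FBZ replicate 3 or other single libraries these counts fell, to no fewer than 24 members differing from ABZ, 11 from MBZ and 15 from TBZ in either direction. Adjusted over all 10 pairs and all genes together, FBZ differed from ABZ in 33 members, from MBZ in 22 and from TBZ in 25.

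By count, OxBZ was below the remaining drugs in more members than above. ABZ was higher than OxBZ in 14 of the 73 members and lower in 3. These were 19.2% and 4.11%, both below the 22% and 21.4% of all genes. OxBZ was higher than MBZ in 4 and lower in 24 (all genes 22.3% and 20.1%), and higher than TBZ in 5 and lower in 17 (22.9% and 19.1%). The share of members lower than MBZ exceeded that of all genes, while the share lower than TBZ was near it. Both shares of members higher under OxBZ were below those of all genes. The median difference of OxBZ minus MBZ was -0.91 over the members and -0.14 over all genes tested. The largest differences were those of grl-23, by 4.13 between ABZ and OxBZ and by -4.29 between OxBZ and MBZ, and of grd-12, by 2.69, -3.72 and -3.10 from ABZ, MBZ and TBZ. The level of grl-23 was at most 0.0523 CPM in the OxBZ libraries and varied from 0.044 to 1.03 CPM among those of MBZ, so its difference rests on few reads. Between OxBZ and TBZ the next largest was grl-5, by -2.29. In the other direction grd-3 and grd-4 were higher under OxBZ. Their differences were -0.99 and -1.12 as ABZ minus OxBZ, 1.35 and 0.96 as OxBZ minus MBZ, and 1.75 and 1.27 as OxBZ minus TBZ. Adjusted over all 10 pairs and all genes together, OxBZ differed from ABZ in 13 members, from MBZ in 26 and from TBZ in 17.

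ABZ, MBZ and TBZ differed from one another in few of these genes by the test. Between ABZ and MBZ 0 members passed the edgeR test, against 0.0744% of all genes higher and 0.132% lower, with 3 at an unadjusted p below 0.05 and 1 by DESeq2. Between MBZ and TBZ the count was also 0, against 2.19% and 1.26% of all genes, with 3 at an unadjusted p below 0.05 and 1 by DESeq2. Between ABZ and TBZ ptr-22 was higher under ABZ by 1.16 ± 0.30 (edgeR adjusted p = 0.0358) and ptc-1 by 0.37, where 3.94% of all genes were higher and 2.40% lower. Adjusted over all 10 pairs and all genes together, 1 member differed between ABZ and MBZ and 3 between ABZ and TBZ. Between MBZ and TBZ 2 then differed, ptc-1 and ptr-21, both higher under MBZ. So few calls do not show that the 3 drugs acted alike. The 95% interval of the difference lay within 1 log2 unit of 0 in only 22 of the 73 members for ABZ and MBZ, 26 for MBZ and TBZ, and 21 for ABZ and TBZ. For ptc-3 the interval was -0.19 to 0.39 between MBZ and TBZ and 0.03 to 0.61 between ABZ and MBZ, and for ptr-12 it was -0.37 to 0.24 between ABZ and MBZ.

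The order of the drugs in the level of ptr-22 was ABZ, OxBZ, FBZ, TBZ and MBZ, at 83.6 ± 7.78, 61.8 ± 7.33, 47.6 ± 7.48, 37.4 ± 11.9 and 29.9 ± 7.05 CPM. Neighbours in that order did not differ by the test. The adjusted edgeR p was 0.250 between ABZ and OxBZ, 0.292 between OxBZ and FBZ, 0.378 between FBZ and TBZ and 0.775 between TBZ and MBZ. Of the 6 pairs farther apart, 3 passed the edgeR test. ABZ was above FBZ by 0.81 ± 0.30 (adjusted p = 0.0428) and above TBZ by 1.16 ± 0.30, and OxBZ was above MBZ by 1.05 ± 0.30 (adjusted p = 0.0129). OxBZ against TBZ, at 0.72 with a 95% interval of 0.08 to 1.37 (adjusted p = 0.0677), and FBZ against MBZ, at 0.67 with an interval of 0.02 to 1.32 (adjusted p = 0.113), did not. The widest difference, 1.48 ± 0.31 between ABZ and MBZ with a 95% interval of 0.83 to 2.14, had an adjusted p of 0.0886 within its pair and of 0.00246 over all 10 pairs. Over all pairs the adjusted p of ABZ against FBZ was 0.0568.

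The order in ptc-3 was different, at 132 ± 6.55 CPM under FBZ, 116 ± 4.67 under ABZ, 92.8 ± 4.77 under MBZ, 86.4 ± 11.4 under TBZ and 69.7 ± 9.48 under OxBZ. FBZ was above MBZ by 0.51 ± 0.14, above TBZ by 0.61 ± 0.14 and above OxBZ by 0.92 ± 0.14 on the log2 scale, each past the test. It did not differ detectably from ABZ (95% interval of ABZ minus FBZ -0.48 to 0.09). ABZ was above OxBZ by 0.73 ± 0.14 and the difference of OxBZ minus MBZ was -0.41 ± 0.14, both past the test.

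Other genes of the pathway were read from a list of 14 that were tested. Under FBZ 4 rose and 3 fell, or 28.6% and 21.4%, near the 24.3% and 27.4% of all genes tested. Under OxBZ 2 rose and 1 fell, or 14.3% and 7.14%, below the 21.2% and 21.5% of all genes, and under ABZ, MBZ and TBZ 0 passed the edgeR test, with 1, 2 and 3 at an unadjusted p below 0.05. The rises under FBZ were those of hog-1, a gene with a Hog domain like that of Hedgehog precursors (log2 fold change 2.35), daf-6, a patched-related gene that shapes the glial channel of sense organs (2.02), che-14, a homologue of Dispatched, which releases Hedgehog in other animals (1.25), and qua-1, a Hedgehog-related gene needed for molting (1.20). The falls were those of ncr-2 (-1.16), a homologue of the sterol transporter NPC1, and of the sex determination genes fem-3 (-0.29) and tra-2 (-0.28), the latter a membrane protein related to Patched. Under OxBZ fem-1 (0.30) and fem-3 (0.27) rose and tra-1 fell by 0.84 on the log2 scale. The product of tra-1 is the worm homologue of the Gli transcription factors, which act downstream of Hedgehog in other animals and in sex determination in the worm. Its log2 fold change under FBZ was -0.37 (edgeR adjusted p = 0.104). The genes ncr-1, ptd-2, scp-1, hhat-1 and hhat-2 did not pass the test under any drug.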

How the data were processed

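Total RNA of whole worms was sequenced as paired reads of 100 nt in 18 libraries of 6 groups, per the labels' protocols. The authors deposited raw read counts for each gene, made with Subread 1.4.6 and featureCounts per the submitters' processing notes. The sources used here give neither build, annotation nor strand setting, so no coordinates are given. Symbols, exon lengths, neighbours and overlaps were taken from the Ensembl annotation of WBcel235, with neighbours sought among protein-coding genes only. Of 20395 identifiers 19628 had a symbol, and those without held 0.915% of counts.

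In R 4.3.3, edgeR 4.0.16 (TMM factors, filterByExpr with a minimum count of 10, which removed 2911 genes) fitted 1 robust quasi-likelihood model with a mean per group to all 18 libraries, with 12 residual degrees of freedom and a common biological coefficient of variation of 0.303. Benjamini-Hochberg adjustment over 17484 genes was used, with a threshold of 0.05. Dividing the size of a log2 fold change by the root of its F statistic gave the SE, and intervals cover 95%. Levels per kb divide the CPM by exon length. The test was tried on simulated counts.

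Library numbers were checked for pairing by correlating deviations from the group means. For ABZ and DMSO libraries of the same number this gave 0.69, 0.812 and 0.541, so these were taken as paired. The labels do not state a pairing, which comes from the data alone. The other drugs did not reach 0.1 in every pair.

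Members and gene lists were chosen with earlier results of these data known. Named members were, per drug and family, the 3 called genes of largest change with at least 1 CPM, the 2 most abundant per family, both ptc genes and the 2 largest differences per drug pair, 29 in all. Further members were named after their values were seen. Other settings tried were RLE and upper-quartile factors, no filter, DESeq2 1.42.0, fits of 1 drug with DMSO, replicate blocks and leaving out libraries.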

Additional observations from a re-analysis of the deposited data

How the results depend on the processing

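The 46 calls of named genes against DMSO kept their direction under every setting run, and none was lost with DESeq2 or RLE factors. Calls were lost for 2 with upper-quartile factors, 1 without the filter, 5 with a replicate block over all libraries, and 13 without DMSO replicate 2 or without both libraries numbered 2.

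In fits of 1 drug with DMSO and no replicate block, ABZ raised 1 member, OxBZ raised 2 and lowered 6, MBZ raised 0, and TBZ raised and lowered 0. With the replicate block, ABZ lowered 1, OxBZ raised 1 and lowered 2, and MBZ and TBZ raised and lowered 0. FBZ raised 28 with this block and 47 with a block over all libraries, under which TBZ lowered 1 and 1 member differed between ABZ and TBZ. TBZ libraries were numbered 2, 3 and 4, so the block fit of TBZ left out TBZ replicate 4 and DMSO replicate 1. With so few libraries it could hardly call a gene, and its count of 0 says little. In the block over all libraries TBZ replicate 4 was alone in its number, so it added nothing to comparisons with TBZ. Numbers of FBZ, OxBZ, MBZ and TBZ did not pair with DMSO (correlations of FBZ 0.125, -0.009 and -0.083).

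Without both libraries numbered 2, OxBZ raised 2 and lowered 7, MBZ raised 1 and lowered 1, TBZ lowered 1, and 1, 34 and 34 members differed between ABZ and MBZ, FBZ and MBZ, and OxBZ and TBZ. The medians under FBZ were then 1.62 (grd), 1.71 (grl) and 0.89 (ptr), under MBZ 0.02 (grd) and 0.48 (ptr), and under TBZ -0.15 (grd) and 0.34 (ptr). DESeq2 lowered 1 under MBZ and called 27, 1, 4 and 1 between ABZ and OxBZ, MBZ and TBZ, and between MBZ and TBZ. Upper-quartile factors left 2 rises and a ptc median of 0.10 under OxBZ. Without the filter the grl median under FBZ was 1.33 and the grd medians under OxBZ, MBZ and TBZ were -0.35, 0.08 and -0.00.

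Leaving out 1 library at a time, OxBZ raised 1 to 4 and lowered 5 to 20, MBZ raised 1 to 6 and lowered 0 to 2, and TBZ raised 2 to 5 and lowered 1 to 7. Members differing numbered 24 to 42 (ABZ and FBZ), 8 to 26 (ABZ and OxBZ), 0 to 1 (ABZ and MBZ), 0 to 5 (ABZ and TBZ), 11 to 29 (FBZ and MBZ), 15 to 31 (FBZ and TBZ), 14 to 36 (OxBZ and MBZ), 12 to 31 (OxBZ and TBZ) and 0 to 2 (MBZ and TBZ). Medians ran, under ABZ, from -0.76 to 0.05 (grd), 0.08 to 0.43 (grl) and 0.04 to 0.68 (ptr); under FBZ, from 0.99 to 1.62 (grd), 1.54 to 1.92 (grl), 1.69 to 2.56 (wrt), 0.89 to 1.59 (ptr) and 1.27 to 1.55 (all members). Under OxBZ they ran from -1.31 to -0.49 (grd), -1.12 to -0.26 (grl), -2.01 to 0.11 (wrt), -0.55 to -0.15 (ptr) and -0.85 to -0.24 (all). Under MBZ they ran from -0.66 to 0.02 (grd), 0.50 to 0.91 (grl), 0.49 to 0.87 (ptr) and 0.42 to 0.77 (all), and under TBZ from -0.58 to -0.15 (grd), 0.39 to 0.87 (grl), 0.34 to 0.86 (ptr) and 0.34 to 0.68 (all). The cause of these shifts was not tested. Members of low count, such as grl-11 and grl-23, carry wide intervals at this depth.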

Other observations

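Some neighbouring members differed in direction under FBZ and others did not. Besides grd-10, grd-3 and grd-13, which held rises and a fall under FBZ, grd-4 and grd-14 are adjacent. Under FBZ grd-4 measured 0.724, 1.32 and 1.11 CPM against 1.46, 1.85 and 2.14 CPM in DMSO, and was lower than under OxBZ by 1.21 on the log2 scale, whereas grd-14 was higher under FBZ than under OxBZ by 2.44. The adjacent pair wrt-1 and wrt-10 held FBZ values above DMSO in both genes, without passing the test, and grd-3 and grd-10 both fell under TBZ. In all, 12 members formed 7 adjacent pairs.

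The gene grl-21 showed 1 high library in each of DMSO and ABZ. It measured 1.53, 13.9 and 0.940 CPM in DMSO, 1.16, 6.71 and 0.648 CPM under ABZ and 20.5, 16.7 and 25.8 CPM under FBZ. The libraries numbered 2 were the high ones. Its log2 fold change under FBZ was 1.94 with an adjusted edgeR p of 0.101, while FBZ exceeded MBZ by 3.82 and OxBZ by 3.98, both past the edgeR test.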
